A study of Homo sapiens with 28 samples.

Results

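Autophagy machinery genes encode the proteins that build the autophagosome, a double membrane that closes around cytoplasm and carries it to the lysosome, together with the receptors that choose its cargo. They were taken here as 40 named genes out of the 56809 gene rows of the deposited tables, matched by symbol, and all 40 were found. Of these, 38 passed the filter on low counts and were tested. ULK2 and MAP1LC3A did not pass and were near 0 in every library. The members were chosen from knowledge of the pathway, with ATG16L2 and ULK3 already known to be higher in p65 knockout cells, so the direction of those 2 genes is a description and not an independent result.

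The libraries came from U937, a human monocytic leukemia line, in which single NF-kB subunits had been targeted with CRISPR. The 14 clones comprised 3 controls that had received non-specific guide RNAs (CTR), 3 p65 knockouts (p65 is encoded by RELA), and 2 each of p50 (NFKB1), p52 (NFKB2), cREL (REL) and RELB knockouts. Every clone gave 1 untreated library and 1 library from cells given 500 ng/ml lipopolysaccharide (LPS), both labelled 6 h, which makes 12 groups and 28 libraries. A replicate is therefore a clone, and within a group the spread is that between clones of this line. The main model had no term for clone and treated the 2 libraries of a clone as independent. Sums over each clone were also tested. Batch C held CTR replicates 1 and 3 and p65 replicates 2 and 3, batch B held CTR replicate 2 with 1 clone of each knockout other than p65, and batch A held p65 replicate 1 with 1 clone of each other knockout and no control.

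In the pathway, the ULK kinase complex starts autophagy, and a lipid kinase complex that includes BECN1 then marks the growing membrane. ATG9A, ATG2A, ATG2B and the WIPI proteins supply and shape that membrane, and 2 ubiquitin-like reactions attach proteins of the LC3 and GABARAP families to its lipids. Cargo receptors such as SQSTM1 (p62) and OPTN bind ubiquitin on one side and LC3 on the other, and TFEB and TFE3 are transcription factors of autophagy and lysosome genes. In macrophages the same receptors carry bacteria and damaged mitochondria, and SQSTM1 is a known target of NF-kB and of the oxidative stress factor NRF2.

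Total estimated counts were 12643438 to 22122428 per library, and 22783 to 25837 genes had a value above 0. Of 9 myeloid markers 8 had a mean of at least 1 TPM (a level scaled for library depth and transcript length), while MPO was at 0 in 18 of 28 libraries. RELA, the gene targeted in the p65 clones, was 3.201 to 8.192 TPM in p65 replicates 2 and 3 and 23.24 to 38.27 TPM in the 22 libraries of other genotypes. In the clone labelled p65 replicate 1 it was 43.75 TPM untreated and 52.08 TPM with LPS, which goes against its label at the messenger RNA level, although an edited transcript can still be counted. The p65 folds of OPTN, SQSTM1, ULK3 and ATG16L2 are therefore also given without this clone. These are bulk libraries, in which fewer cells expressing a gene and less RNA per cell cannot be told apart.

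Promoter sequence was read for the genes that the results turn on, because NF-kB binds a known DNA letter pattern and TFEB and TFE3 bind another. RefSeq promoters (GRCh38.p14, 250 bases before to 50 after each start) were matched for 36 of the 40 genes, and not for ATG4D, MAP1LC3A, RB1CC1 and UVRAG. Both strands were searched. A strict kappa B pattern was held by 0.558% of 35116 promoters and by 1 of the 36, OPTN. A wider kappa B consensus, added after the data were seen and overlapping the strict one, was held by 5.91% of promoters and by ATG16L2, BECN1, OPTN and TFE3. The E-box core CACGTG was held by 7.26% of promoters and by ATG14, ATG3 and ULK3. The following stretches of OPTN, ATG16L2 and ULK3 are shown 5′ to 3′ on the strand of the gene, with the match in capitals.
OPTN, chr10:13099982-13100081, plus strand: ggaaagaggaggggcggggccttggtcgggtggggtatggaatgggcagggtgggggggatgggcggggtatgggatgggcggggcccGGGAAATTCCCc
ATG16L2, chr11:72814322-72814351, plus strand: ggacaagccGGGGATTCCCCgccgccgccc
ULK3, chr15:74843311-74843340, minus strand: cctccgtatcccCACGTGggccctgcagga
OPTN has 2 overlapping RefSeq windows, and its capitals begin 12 bases before one start and 93 before the other. They begin 80 bases before the start in ATG16L2 and 172 before it in ULK3. In GENCODE 29 no OPTN exon covers the OPTN stretch, which lies between an exon ending at 13099958 and the next starting at 13100159, while the ATG16L2 and ULK3 stretches each lie in the first exon of 1 annotated transcript. The capitals in OPTN and ATG16L2 each hold 2 overlapping matches to the wider consensus. SQSTM1 held none of the patterns in this window. TGANTCA, the AP-1 pattern, was held by 7.71% of promoters and by TFE3, and TGACNNNGC, the core of the NRF2 pattern, by 13.3% and by ATG101, CALCOCO2, MAP1LC3B and ULK3. A match describes letters and not binding.

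Most of the machinery was well expressed. Mean TPM over the 28 libraries was at least 10 in 29 of the 40 genes and at least 100 in 6. The median of the 38 tested genes was 26.68 TPM, against 5.995 TPM over all 18624 genes tested. SQSTM1 had the highest mean of the group, 669.8 TPM, and alone made 16.1 to 39.4% of the summed TPM of all 40 genes in a library. Without SQSTM1 that sum stayed between 1741 and 2217 TPM.

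**Figure D1:**
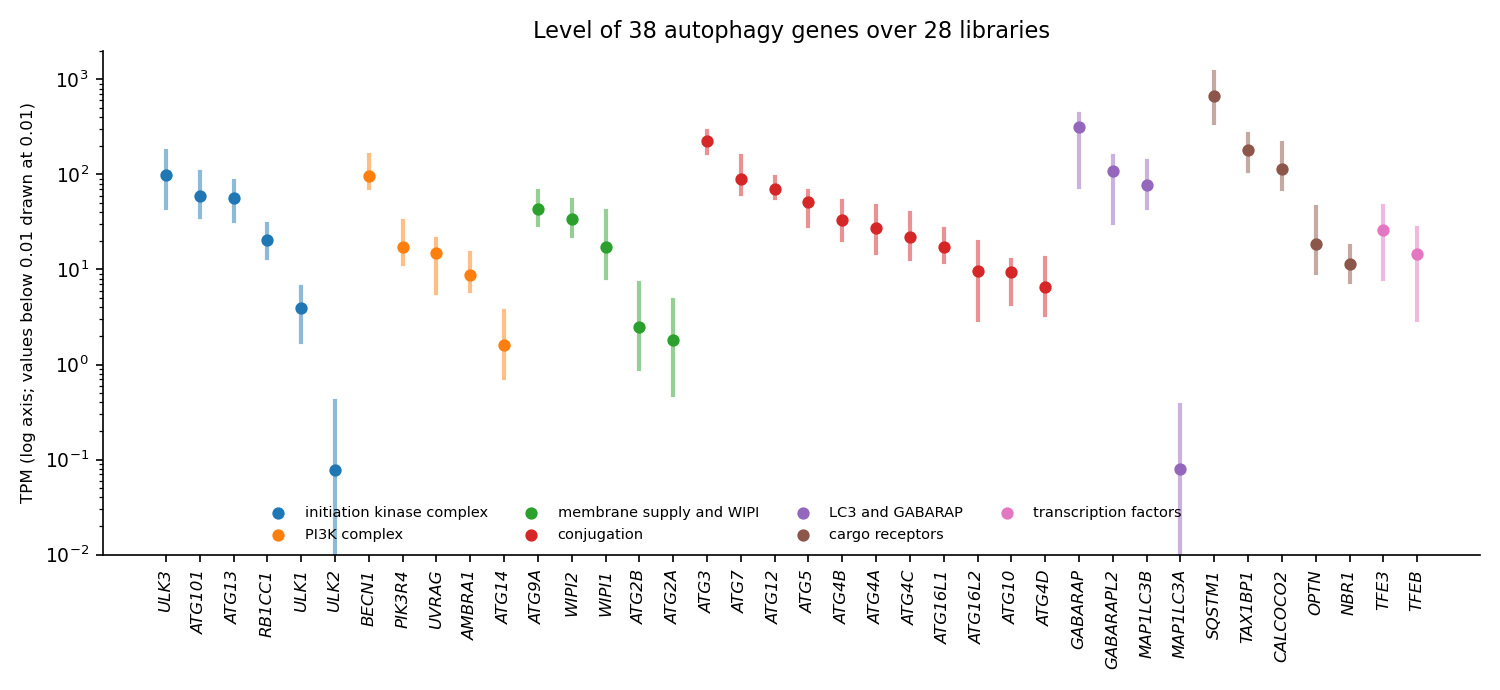
Level of 38 of the 40 autophagy genes in TPM on a log axis, coloured by role and ordered by mean within the role; the dot is the mean and the bar runs from the lowest to the highest of 28 libraries. SQSTM1 has the highest mean, 669.8 TPM, and the bars of ULK2 and MAP1LC3A reach the bottom of the axis.

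The highest gene of each of 5 other roles was not called in any comparison. GABARAP, a small protein that couples membranes to cargo and to lysosome fusion, was 382.1, 374.3 and 305.5 TPM in untreated CTR replicates 1 to 3 and 322.5, 295.4 and 318.2 TPM with LPS. Its 22 knockout libraries ran from 73.64 to 427.8 TPM with a median of 324.4. The lowest value was that of untreated p65 replicate 3, and GABARAPL2 was also lowest there, at 31.04 TPM. ATG3, the enzyme that transfers LC3 to lipid, was 242.4, 182.7 and 283.7 TPM untreated and 253.8, 212.2 and 230.1 TPM with LPS, and 169.1 to 269.1 TPM (median 221.8) in the knockouts. BECN1, a scaffold of the lipid kinase complex, was 91.36, 89.84 and 160.3 TPM untreated and 90.59, 82.44 and 146.4 TPM with LPS, and 71.42 to 139.6 TPM (median 92.83) in the knockouts. For BECN1 CTR replicate 3 lay above the other 2 control clones under both conditions, and above all knockout libraries. ATG9A, a membrane protein that seeds the autophagosome, was 31.74, 29.13 and 44.2 TPM untreated and 34.32, 35.43 and 34.23 TPM with LPS, and 31.04 to 66.25 TPM (median 44.47) in the knockouts. TFE3 was 22.13, 35.73 and 18.54 TPM untreated and 25.13, 42.26 and 30.54 TPM with LPS, and 7.944 to 46.42 TPM (median 24.33) in the knockouts. The control and knockout ranges overlapped for all 5 genes.

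At the other end of each role, the lowest means were 11.37 TPM for NBR1, 6.622 for ATG4D, 1.807 for ATG2A, 1.623 for ATG14, 0.0787 for MAP1LC3A, 0.0771 for ULK2 and 14.39 for TFEB. MAP1LC3A had 23 estimated reads summed over the 28 libraries and ULK2 had 44.06. Of the LC3 genes in the group, MAP1LC3B was the one read in these cells, at 44.27 to 104.1 TPM in CTR and 45.99 to 138.9 TPM in the knockouts. Within the kinase family ULK3 stood at a mean of 97.86 TPM over the 28 libraries and at 47.49 to 97.35 TPM in CTR. ULK1, the kinase best known for starting autophagy, was 2.988 to 5.758 TPM in CTR.

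LPS raised the cargo receptor OPTN in control cells. OPTN (optineurin, ENSG00000123240, chr10:13099449-13138308) links ubiquitin-coated bacteria and mitochondria to LC3. It was 12.42, 25.72 and 15.24 TPM in untreated CTR replicates 1 to 3 and 29.55, 31.62 and 44.04 TPM with LPS. All 3 control clones were higher with LPS and the groups did not overlap, although the untreated value of replicate 2 was close to the lowest LPS value. The log2 fold in edgeR was 1.36 ± 0.26 (standard error, SE; adjusted p = 0.01858, n = 3 clones). OPTN was the single call among 38 tested autophagy genes here, where 0.408% of all tested genes were called. Clone by clone the LPS difference in log2 CPM (counts scaled for library depth only) was 1.92, 0.54 and 1.79. The call was lost without CTR replicate 1 (1.12, adjusted p = 0.2163), CTR replicate 3 (1.12, adjusted p = 0.5197) and without p52 replicate 1 (1.32, adjusted p = 0.05182). It was also lost in batch C alone (1.84, adjusted p = 0.1014) and when the authors' effective length was used as an offset (1.01, adjusted p = 0.2762). The effective length of OPTN was 1293, 1582 and 1711 bases in the untreated control libraries and 2117, 1920 and 1894 bases with LPS, and was thus longer with LPS in all 3 clones. CCDC3, whose annotated exons overlap those of OPTN, reached at most 0.1068 TPM.

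SQSTM1, the receptor for ubiquitin-tagged aggregates (ENSG00000161011, chr5:179806398-179838078), had higher values with LPS in CTR without passing the threshold. It was 607.7, 848.5 and 466.8 TPM in untreated CTR replicates 1 to 3 and 1186, 1147 and 934.4 TPM with LPS. The ranges did not overlap. The log2 fold was 0.75 ± 0.18 (adjusted p = 0.09182 in edgeR). With each clone as a block it was 0.78 ± 0.11 and passed (adjusted p = 0.001631), and DESeq2 and limma voom also called it (adjusted p = 0.02711 and 0.002247). Of the 38 tested genes 36 had a fitted LPS difference within 0.5 log2 units of 0 in CTR, as did 72.95% of all genes tested, and 1 lay beyond 1. The median over the 38 was 0.01, and SEs ran from 0.11 to 0.39.

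**Figure D2:**
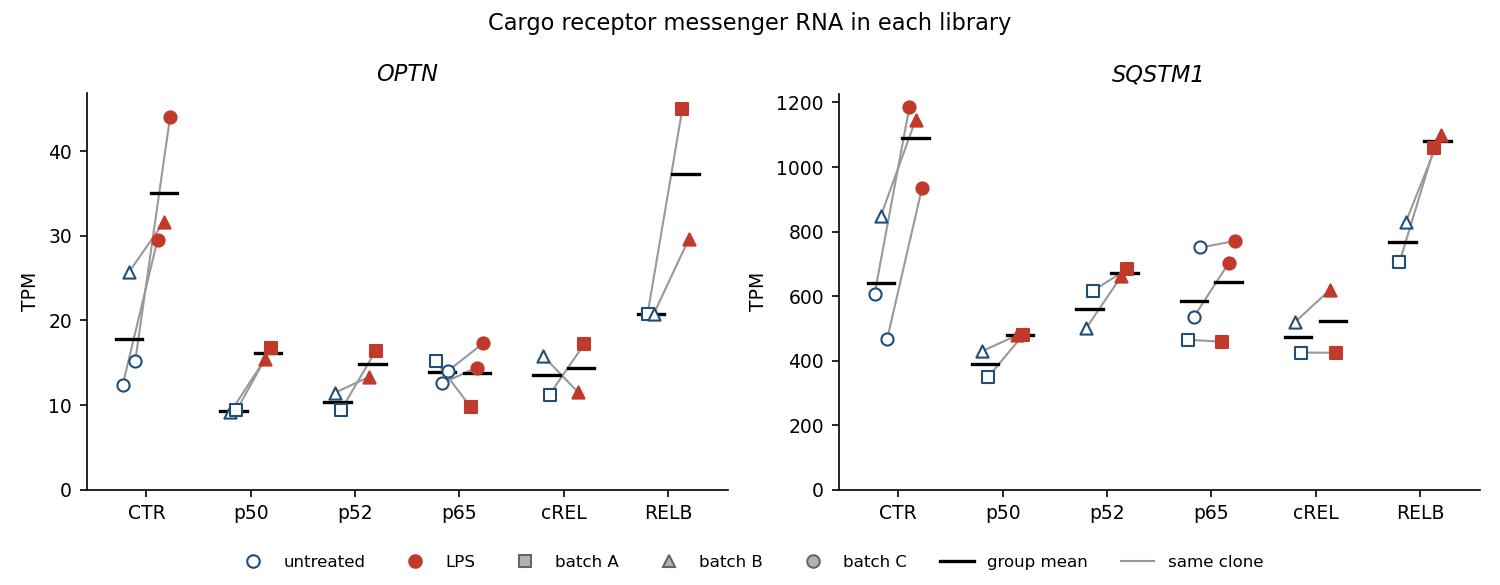
OPTN and SQSTM1 in TPM in each of 28 libraries by genotype, untreated in open symbols and LPS in filled ones, with symbol shape for batch, black bars for group means and grey lines joining the libraries of a clone. With LPS the CTR and RELB clones lie above every p50, p52, p65 and cREL clone for both genes.

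In the knockouts edgeR called no autophagy gene for LPS against untreated. All genes gave few calls there too: 0.0161% in p50, 0.0215% in p52, 0.0268% in p65, 0.0107% in cREL and 0.129% in RELB. At an unadjusted p under 0.05 there were 1, 1, 0, 0 and 2 autophagy genes, beside 1.56 to 2.89% of all genes. Neither DESeq2 nor voom called any, and they called 0.043 to 0.311% and 0.00537 to 0.322% of all genes. OPTN was 20.78 and 20.8 TPM in untreated RELB replicates 1 and 2 and 45.02 and 29.57 TPM with LPS, with a log2 fold of 0.92 ± 0.32 (adjusted p = 1). SQSTM1 in RELB was 704.5 and 828.5 TPM untreated and 1060 and 1099 TPM with LPS, with 0.63 ± 0.22 (adjusted p = 1). These RELB values lay apart from each other by treatment, as in CTR. The clone differences of OPTN in log2 CPM were 0.69 and 0.55 in p50, 0.45 and 0.83 in p52, −0.17, 0.15 and 0.24 in p65, and −0.24 and 0.40 in cREL.

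With LPS, OPTN lay low in 4 of the 5 knockouts. It was 15.45 and 16.77 TPM in p50 replicates 1 and 2, 13.35 and 16.39 in p52, 9.795, 14.44 and 17.29 in p65 replicates 1 to 3, and 11.51 and 17.21 in cREL. All 9 libraries lay below the lowest LPS value of CTR, 29.55 TPM, and that of RELB, 29.57 TPM. In p65 against CTR with LPS OPTN fell by 1.59 ± 0.26 on the log2 scale (adjusted p = 0.003511). The other 3 knockouts had −1.19 ± 0.33 for p50, −1.28 ± 0.33 for p52 and −1.39 ± 0.33 for cREL, none of which passed (adjusted p = 0.1769, 0.1369 and 0.1059). RELB had −0.21 (adjusted p = 0.8858). All 5 comparisons share the 3 CTR libraries. In batch C alone the p65 value was −1.58 (adjusted p = 0.162). Without p65 replicate 1 it was −1.36 (adjusted p = 0.05511), and the values for p52 and cREL then passed (−1.55, adjusted p = 0.03781 and −1.67, adjusted p = 0.0408), while that for p50 did not (−1.45, adjusted p = 0.07029).

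SQSTM1 was low in the same 4 knockouts. With LPS it was 478.1 and 479.8 TPM in p50, 661.1 and 683.7 in p52, 458.7, 702.2 and 770.6 in p65 and 424.4 and 619 in cREL. All of these were below the lowest CTR value with LPS, 934.4 TPM. The log2 scale change was −0.85 ± 0.18 in p65 (adjusted p = 0.02809), which passed. It was −1.06 ± 0.23 in p50, −0.93 ± 0.23 in cREL and −0.69 ± 0.23 in p52, which did not (adjusted p = 0.06412, 0.1113 and 0.26), and 0.03 in RELB. Without p65 replicate 1, whose LPS value is the lowest of the 3, the p65 value was −0.62 (adjusted p = 0.2005), while p50, cREL and p52 passed (adjusted p = 0.01164, 0.01993 and 0.04595). The p65 call was also lost without CTR replicate 1 (−0.75, adjusted p = 0.1537), p65 replicate 2 (−0.91, adjusted p = 0.06029), p65 replicate 3 (−0.95, adjusted p = 0.05535) and either p52 clone (adjusted p = 0.0677 and 0.05122), and without the batch term (−0.88, adjusted p = 0.06419) or in batch C alone (−0.74, adjusted p = 0.3578). Over the 12 group means of SQSTM1 CTR with LPS was highest, 1089 ± 135.6 TPM (SD, n = 3), then RELB with LPS, 1080 ± 27.57 (n = 2), and untreated RELB, 766.5 ± 87.67 (n = 2). The ranges of CTR and RELB with LPS overlapped, those of RELB with and without LPS did not, and p50 untreated was lowest, 390 ± 56.07 (n = 2). MGAT4B and MRNIP, whose annotated exons overlap those of SQSTM1, were at 1.296 to 9.951 and 4.311 to 15.43 TPM, far below it.

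Without LPS the ranges of these 2 receptors overlapped those of CTR. OPTN ran from 9.128 to 15.8 TPM in the 9 untreated p50, p52, p65 and cREL libraries and from 12.42 to 25.72 TPM in CTR. SQSTM1 ran from 350.3 to 750.6 TPM in those 9 and from 466.8 to 848.5 TPM in CTR. Both p50 libraries (429.6 and 350.3 TPM), p65 replicate 1 (464.6) and cREL replicate 2 (425) lay below all CTR values. The SQSTM1 log2 fold in p50 was −0.53 ± 0.22 (edgeR unadjusted p = 0.02565, adjusted p = 0.7116). Neither gene was called in any untreated comparison of a knockout with CTR. Whether LPS acted differently in a knockout was tested directly as the difference of the 2 responses. For OPTN it was −1.27 ± 0.37 in p65 minus CTR (unadjusted p = 0.00242, adjusted p = 1; −1.24 without p65 replicate 1) and −1.26 ± 0.41 in cREL minus CTR (adjusted p = 1). No autophagy gene passed in any of these 5 comparisons, in which 0% of genes passed for p50, p52, cREL and RELB and 0.0161% for p65. At an unadjusted p under 0.05 there were 0 to 3, beside 2.14 to 3.01% of all genes, and DESeq2 and voom called none, where they called 0.0161 to 0.102% and 0 to 0.0644% of all genes. A smaller response in the knockouts was therefore not shown for these genes at this number of clones.

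ULK3 was higher in p65 clones than in controls under both conditions. ULK3 (ENSG00000140474, chr15:74836116-74843346, minus strand) is a kinase related to ULK1 that also acts in Hedgehog signalling. It was 53.32, 95.84 and 59.02 TPM in untreated CTR replicates 1 to 3 and 47.49, 97.35 and 67.58 TPM with LPS. In p65 replicates 1 to 3 it was 116.4, 106.1 and 177.2 TPM untreated and 114.5, 126 and 119.9 TPM with LPS. The 6 p65 libraries all lay above the 6 CTR libraries. The log2 fold was 1.04 ± 0.19 untreated (adjusted p = 0.04146) and 0.92 ± 0.19 with LPS (adjusted p = 0.01646). Untreated, this was 1 call among 38 genes where 0.0537% of all genes were called. ULK3 was already known to be higher in p65 when the genes were chosen, so this count is a description and not an independent result.

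The ULK3 level also went with batch. In batch B all 10 libraries lay between 95.84 and 137.6 TPM, CTR included. In batch C the 4 CTR libraries had 47.49 to 67.58 TPM and the 4 p65 libraries 106.1 to 177.2 TPM. In batch A p65 replicate 1 had 116.4 and 114.5 TPM, and the 8 libraries of other knockouts had 44.51 to 119.2 TPM. Batch is a term of the model. Without that term the log2 fold was 0.75 untreated and 0.64 with LPS (adjusted p = 0.6865 and 0.719), and in batch C alone it was 1.06 and 0.82 (adjusted p = 0.6452 and 0.452). The untreated call was also lost with the effective length as an offset (1.04, adjusted p = 0.06834). Without p65 replicate 1 it was 1.07 and 0.88 (adjusted p = 0.1143 and 0.1041). Leaving out any 1 of the 6 CTR and p65 clones in turn gave 0.89 to 1.16 untreated, and among these the call was kept only without p65 replicate 2. It was lost as well without p52 replicate 2 or either cREL clone (adjusted p = 0.06091 to 0.07455). With LPS the call was lost without CTR replicate 1, CTR replicate 2 or p65 replicate 3 (0.79, 0.89 and 0.91, adjusted p = 0.1153, 0.08376 and 0.05605). No other gene's annotated exons overlap those of ULK3.

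ATG16L2 had the largest fold in p65 clones among the 38 genes. It is a paralog of ATG16L1, the scaffold of the LC3 conjugation reaction, and is expressed in blood cells (ENSG00000168010, chr11:72814308-72843674). It was 7.684, 10.01 and 4.459 TPM in untreated CTR replicates 1 to 3 and 2.959, 8.683 and 5.834 TPM with LPS. In p65 replicates 1 to 3 it was 13.87, 12.32 and 16.99 TPM untreated and 11.08, 16 and 19.51 TPM with LPS. The 6 p65 libraries all lay above the 6 CTR libraries. With LPS the log2 fold was 1.86 ± 0.30 (adjusted p = 0.00319). Untreated it was 1.55 ± 0.30 and did not pass (adjusted p = 0.07623), nor without p65 replicate 1 (1.48, adjusted p = 0.1537).

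The p65 value of ATG16L2 with LPS passed when any of the 14 clones was left out (1.70 to 2.09, 14 of 14 passing), and was 1.89 without p65 replicate 1 (adjusted p = 0.02081). It did not pass without the batch term (1.42, adjusted p = 0.523) or in batch C alone (1.83, adjusted p = 0.2314). Clones of the other knockouts enter this comparison only indirectly, as through the batch term. ATG16L2 was chosen with its p65 difference known, so these passes are not independent support. Its batch pattern was like that of ULK3. Batch B had 8.683 to 18.24 TPM, batch C CTR 2.959 to 7.684, batch C p65 12.32 to 19.51, and the other knockouts of batch A 3.058 to 10.59 TPM. FCHSD2, whose annotated exons overlap those of ATG16L2, was 4.191 to 15 TPM and had 0.79 ± 0.26 in p65 with LPS (adjusted p = 0.1633). The libraries do not mark strand, and the part of shared reads in the ATG16L2 value was not tested. ATG16L2 lies on chromosome 11, as does RELA (chr11:65653596-65663094). Of 13 tested genes within 500 kb of ATG16L2 the median log2 fold in p65 with LPS was 0.45 and 1 was called, AP002761.4 at 1.72 (adjusted p = 0.01766). Of all genes 0.993% were called there. Windows of the same size around ULK3, OPTN and SQSTM1 held 20, 6 and 15 tested genes. None of these was called, and the medians were 0.16, 0.03 and 0.08. The windows were examined after the data were seen, and a local effect was not tested.

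**Figure D3:**
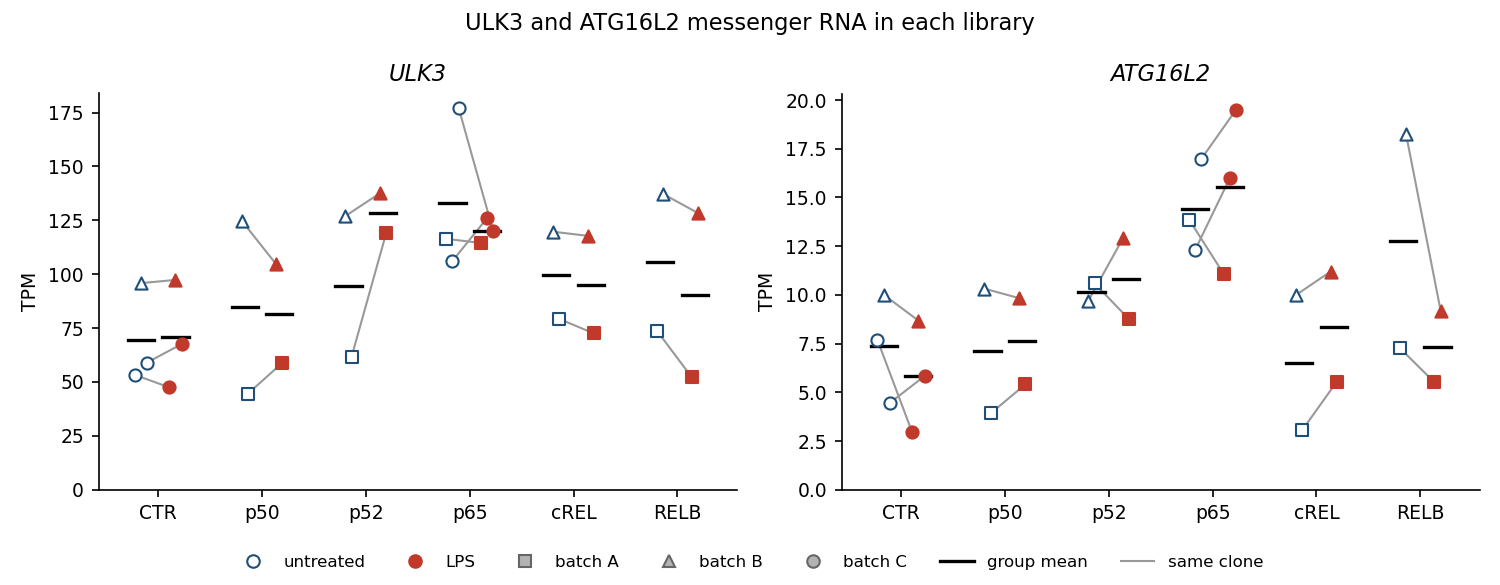
ULK3 and ATG16L2 in TPM in each of 28 libraries by genotype, untreated in open symbols and LPS in filled ones, with symbol shape for batch, black bars for group means and grey lines joining the libraries of a clone. All 6 p65 libraries lie above all 6 CTR libraries for both genes, and batch B clones (triangles) lie above the batch C CTR clones (circles).

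In the other knockouts ULK3 and ATG16L2 spanned both the CTR and the p65 levels. ULK3 was 124.9 and 104.6 TPM (untreated, LPS) in p50 replicate 1 and 44.51 and 58.92 in replicate 2. In p52 it was 127 and 137.6 TPM in replicate 1 and 61.8 and 119.2 in replicate 2. In cREL it was 119.7 and 117.8 TPM in replicate 1 and 79.22 and 72.51 in replicate 2, and in RELB 73.71 and 52.28 TPM in replicate 1 and 137.2 and 128.4 in replicate 2. The batch B clone was the higher of each pair. ATG16L2 was 10.32 and 9.834 TPM in p50 replicate 1, 3.917 and 5.406 in replicate 2, 9.694 and 12.9 in p52 replicate 1 and 10.59 and 8.747 in replicate 2. In cREL it was 9.994 and 11.2 TPM in replicate 1 and 3.058 and 5.549 in replicate 2, and in RELB 7.272 and 5.51 in replicate 1 and 18.24 and 9.172 in replicate 2.

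Against the mean of the other 4 knockouts, p65 had no called autophagy gene, where 0% of all genes were called untreated and 0.0107% with LPS. ATG16L2 had 1.15 ± 0.27 untreated and 1.30 ± 0.27 with LPS (adjusted p = 0.1995 and 0.1277), and ULK3 had 0.70 ± 0.17 and 0.49 ± 0.17 (adjusted p = 0.2036 and 0.4423). Without p65 replicate 1 ATG16L2 had 1.055 and 1.28 and ULK3 had 0.72 and 0.43, and none of these passed (adjusted p = 0.2979, 0.2529, 0.2626 and 0.5863). At an unadjusted p under 0.05 there were 3 genes untreated and 4 with LPS, beside 10.3% and 8.59% of all genes. DESeq2 called ATG16L2 and ULK3 untreated and ATG16L2 with LPS, where it called 0.628% and 0.451% of all genes, and edgeR without the filter on low counts called the same genes. ULK3 untreated also passed without p50 replicate 1 (0.79, adjusted p = 0.04936). Voom called none, where it called 0% and 0.0107% of all genes. These calls thus depended on the tool, the filter and, for ULK3, on 1 clone. Both genes were already known to be higher in p65 when the genes were chosen, so their folds and calls here are a description and not independent support.

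Over all comparisons of a knockout with CTR under LPS, edgeR called 4 autophagy genes in p65, 2 higher and 2 lower, where 0.993% of all genes were called, 0.338% higher and 0.655% lower. Those higher were ATG16L2 and ULK3, both already known to be higher in p65 when the genes were chosen, and those lower OPTN and SQSTM1. In p50, p52, cREL and RELB it called none, where 0.129%, 0.0698%, 0.199% and 0.0483% of all genes were called. At an unadjusted p under 0.05 these 4 knockouts had 6, 6, 6 and 4 genes of 38, beside 9.9%, 9.87%, 9.14% and 9.8% of all genes. DESeq2 called 2, 2, 2 and 1, beside 1.27%, 1.43%, 1.23% and 1.16% of all genes, and voom called 1, 0, 0 and 0, beside 0.145%, 0.118%, 0.204% and 0.0537%. Without LPS it called none in p50, p52, cREL and RELB, where 0%, 0%, 0% and 0.0107% of all genes were called. There were 3, 1, 4 and 3 at an unadjusted p under 0.05, beside 6.42%, 7.6%, 5.78% and 11% of all genes. DESeq2 and voom called none, where they called 0.129 to 1.17% and 0.00537 to 0.0268% of all genes. The median log2 fold of the 38 genes was between −0.03 and 0.11 in the 23 comparisons, and that of all genes between −0.05 and 0.05.

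Summing both libraries of each clone gave 3 calls for p65 against CTR, where 0.298% of 20489 genes were called. ATG16L2 had 1.68 ± 0.25, ULK3 0.97 ± 0.17 and OPTN −1.17 ± 0.20 (adjusted p = 0.0177, 0.0409 and 0.03911). SQSTM1 had −0.68 ± 0.17 (adjusted p = 0.1749). With each of the 14 clones left out in turn, ATG16L2 passed in 9 of 14 cases, ULK3 in 2 and OPTN in 1. Without p65 replicate 1 they had 1.65, 0.96 and −1.05 (adjusted p = 0.08923, 0.1381 and 0.1542), and SQSTM1 had −0.52. On the same sums edgeR called no autophagy gene for p50, p52 and cREL against CTR or for p65 against the other 4 knockouts, where 0.00488% of all genes were called in each, or for RELB against CTR, where 0% were. At an unadjusted p under 0.05 there were 3, 5, 5, 4 and 3, beside 5.93%, 6.44%, 5.6%, 7.24% and 8.27% of all genes, and DESeq2 called 0, 0, 0, 1 and 0, beside 0.312%, 0.239%, 0.264%, 0.39% and 0.415%. Over the 29 comparisons, 4 of the 38 tested genes were called at least once, as were 246 of the 18624 genes of the 12-group model (1.32%). Of these 4, ATG16L2 and ULK3 were members already known to be higher in p65. All members were chosen with earlier results of these data known, so the count of 4 is a description.

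**Figure D4:**
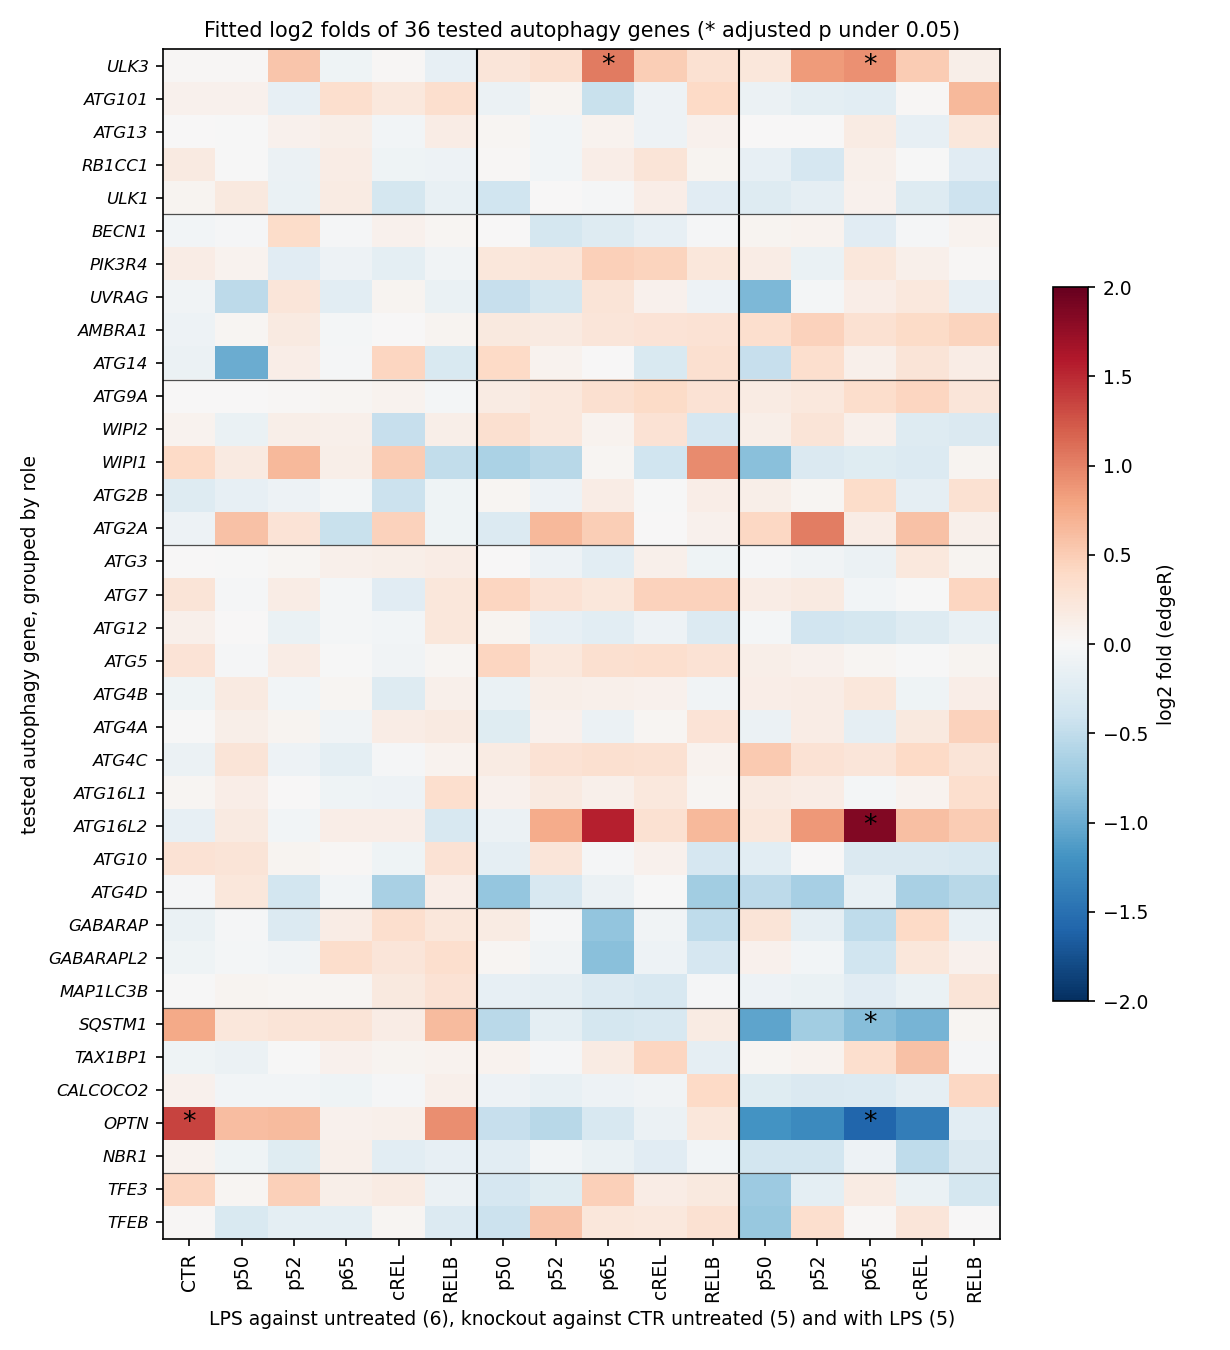
Fitted log2 folds of 36 of the 38 tested autophagy genes (rows, grouped by role) in 16 comparisons (columns): LPS against untreated in 6 genotypes, then 5 knockouts against CTR untreated and with LPS. Red is higher, blue lower, and stars mark the 6 values with an adjusted p under 0.05, all of them in the rows of OPTN, SQSTM1, ULK3 and ATG16L2.

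By role, and beside the same 1.32% of all genes, the called genes were 1 of 5 tested in the initiation complex (ULK3), 1 of 11 in the conjugation reactions (ATG16L2) and 2 of 5 cargo receptors (OPTN and SQSTM1). ULK3 and ATG16L2 were chosen as already known to be higher in p65, so the counts of their roles are a description only. The cargo receptors too were chosen with earlier results of these data known. Tested members also had a higher median level than all tested genes, 26.68 against 5.995 TPM. The 1.32% is thus not a share over genes of like level. None was called among 6 genes of the lipid kinase complex, 5 of membrane supply, 4 tested of the LC3 and GABARAP families and the 2 transcription factors. In p65 against CTR with LPS the role medians ran from −0.46 for the LC3 and GABARAP genes, all 4 of which were lower by sign, to 0.18 for the lipid kinase complex. Without p65 replicate 1 they ran from −0.34 for the LC3 and GABARAP genes to 0.21 for membrane supply. The other 3 receptors, NBR1, CALCOCO2 and TAX1BP1, were not called in any comparison. TAX1BP1 was 134.3 to 229.8 TPM in CTR and 109.9 to 267.4 TPM in the knockouts, and CALCOCO2 (NDP52) was 84.99 to 192.6 and 69.58 to 213.3 TPM.

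A second list of 74 pathway genes outside the machinery, covering nutrient and energy kinases, autophagosome fusion, other receptors and modulators and relatives of TFEB, was read the same way. Of its 73 tested genes edgeR called none in any of the 29 comparisons. DESeq2 called 0 to 4 per comparison and voom 0 or 1, and 0 to 15 had an unadjusted p under 0.05. Over the same comparisons DESeq2 called 0.0161 to 3.49% of all genes and voom 0 to 1.36%, and 1.56 to 12.9% had an unadjusted p under 0.05. The lowest adjusted p was that of TFEC, a relative of TFEB, at −2.20 ± 0.57 in p65 against CTR with LPS (adjusted p = 0.07219), a gene named after its value was seen.

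Markers of other cell types were read because a shift in them could touch these values. The 7 T and NK cell markers summed to 103.4 to 313.9 TPM in p65 and 272.9 to 521.2 TPM in CTR, of which NKG7 made most, and CD3D was 0 in all 28 libraries. The lists for B cells, epithelial cells, fibroblasts, erythroid cells and platelets each summed to at most 19.27 TPM. The part of the NKG7 difference in the p65 results was not tested.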

How the data were processed

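The authors deposited estimated counts per gene, TPM (scaled by the authors for transcript length and to a common total per library) and effective length in bases for 28 libraries of polyadenylated RNA. Salmon 0.11.3, FastQC 0.11.7 and GRCh38 were used, per the submitters' processing notes. Which annotation release they used was not given in the sources used here. All 56809 symbols matched GENCODE 29. Libraries were amplified by PCR and read from both ends, per the labels' protocols, so precision is that of reads and not of molecules.

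After rounding of the estimated counts, edgeR 4.0.16 (R 4.3.3) was used for all tests (filterByExpr, minimum count 10 and minimum total 15, TMM scaling, robust quasi-likelihood fit). The model held 12 groups and batch but no clone, on 18624 genes with 14 residual degrees of freedom, and gave 23 comparisons. Sums over each clone gave 6 more on 20489 genes (6 residual degrees of freedom). A gene was called at a Benjamini-Hochberg adjusted p under 0.05 over all genes of the comparison. Errors of log2 folds are approximate standard errors, computed as the absolute fold divided by the square root of the F statistic of the edgeR test. Log2 CPM used a prior count of 2. Groups, batches and clones came from the labels. Libraries of the same genotype and number come from 1 clone, and their deviations from group means correlated at 0.203 to 0.441. Both libraries of a clone also share a batch, so this correlation cannot tell clone from batch. In groups of 2 clones the deviations mirror each other. Alternatives were DESeq2 1.42.0, limma voom 3.58.1, other size factors, batch C alone, a length offset, leaving out the filter or the batch term, clones as blocks, and each clone left out.

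The members and lists were chosen with earlier results of these data known. Values per library were given for called members, for ATG16L2 and ULK3 and for the highest member of each role (for those, knockouts as range and median); other members were given by range, with the lowest of each role. The values of 2 members are not reported here by gene, and the counts and medians over the group include them.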

Additional observations from a re-analysis of the deposited data

How the results depend on the processing

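Counts of called autophagy genes were recomputed in 591 alternatives over 29 comparisons. Of these, 522 were within 1.5 times the value reported, and 16 comparisons had no alternative outside it. In most comparisons the reported count was 0, so this agreement is largely that of 0 with 0. Where genes had been called, the count moved in 11 of 22 alternatives for LPS in CTR. For p65 against CTR it moved in 14 of 21 untreated, 5 of 21 with LPS and 15 of 20 on clone sums. None of 534 alternative log2 folds of named genes changed sign. These folds were of called genes and of further comparisons picked from the same data. They were refitted on the same or overlapping libraries, so an unchanged sign is not independent support. For LPS in CTR (1 call) DESeq2, voom, no filter and the replicate block each gave 2, batch C alone and the length offset gave 0, and leaving out 1 clone gave 0 to 2. There DESeq2 called 0.832% and voom 1.05% of all genes. The replicate block moved no other count of calls. For p65 against CTR untreated (1 call) DESeq2 gave 3, where it called 1.71% of all genes. No filter gave 5, and no batch term, batch C alone and the length offset 0, with 0 to 3 by clone left out. With LPS (4 calls) no batch term gave 1, batch C alone 0, and clones left out 1 to 4, with 1 without p65 replicate 1 and 2 without CTR replicate 1 or p65 replicate 3. On clone sums (3 calls) DESeq2 and no filter gave 5, no batch term and batch C alone 0, and clones left out 0 to 2. There DESeq2 called 2.61% of all genes. Where edgeR called 0 with LPS against CTR, DESeq2 gave 2 in p50, p52 and cREL and 1 in RELB, no filter gave 2, 1, 2 and 2 in p50, p52, cREL and RELB, and voom gave 1 in p50. Clones left out gave 0 to 2 in p50, p52 and cREL and 0 to 1 in RELB. Untreated, no filter gave 1 in p50 and leaving out RELB replicate 2 gave 1 in RELB (range 0 to 1). For p65 against the other knockouts DESeq2 and no filter gave 2 untreated, 1 with LPS and 1 on clone sums, and clones left out gave 0 to 1 untreated. For alternatives other than DESeq2 and voom no share of all genes is given, so those counts cannot be read as particular to these genes. Batch C alone leaves 2 clones a group. In the other cases the cause was not tested. The filter on low counts kept ULK2 and MAP1LC3A from being tested. Among the genes tested, the largest SE for LPS against untreated in CTR, 0.39, was that of GABARAP, at a mean of 312.6 TPM.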
